A study of Mus musculus with 9 samples.

Results

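The genes described here are the translation initiation and elongation factors of the mouse, chosen by name from a table of RNA counts per gene. A member is a protein-coding row whose symbol begins with Eif1 to Eif6, Eef1 or Eef2, leaving out the eIF2α kinases (Eif2ak), the eIF2B subunits (Eif2b) and Eif2s1. 77 of the 53647 genes in the table were members, and 54 of them had enough reads to be tested. The counts come from Hepa 1-6 cells, a mouse hepatoma line, in 3 groups of 3 samples each. The control group carried a control guide (sgControl). The Usp5 knockout, made with a lentiviral CRISPR vector, lacks the deubiquitinase USP5, and the Ythdf1 knockout, made with CRISPR/Cas9/EGFP plasmids, lacks YTHDF1, a reader of N6-methyladenosine in mRNA. The series was set up to compare the expression profiles of both knockouts. Per the labels' protocols the knockout lines were picked as single-cell clones and checked by immunoblot, so that a difference between groups can also be a difference between clones. Between the knockouts it can also be one of the vector used. The same control group cannot match both vectors, so that the vector can take part in a comparison with control as well. All samples were grown without any treatment named in the labels. The labels number the samples of a group but do not say that they are separate cultures, so that each p-value rests on a spread between samples that may be only technical.

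Translation of most cytoplasmic mRNAs begins when eIF4E binds the cap, the scaffold eIF4G joins it to the helicase eIF4A, and the 40S subunit, loaded with eIF1, eIF1A, eIF3, eIF5 and the ternary complex of eIF2, GTP and initiator tRNA, scans to a start codon. eIF5B then joins the 60S subunit, eEF1A brings each aminoacyl-tRNA and eEF2 moves the ribosome along. The pathway is regulated by the eIF4E-binding proteins, which are released from eIF4E when the kinase mTORC1 phosphorylates them, and by eEF2 kinase, which inactivates eEF2. RNA counts show the level of a factor's transcript, not of the protein or of its phosphorylation.

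The libraries held 24760877 to 42989715 counts, and control 3 was the smallest. Transcripts of Usp5 stood at 54% of control in the Usp5 knockout and those of Ythdf1 at 25.6% of control in the Ythdf1 knockout. Of 11 hepatocyte and hepatoma markers, Alb, Afp, Apob, Trf, Hnf4a, Foxa2 and Fgb were well expressed, while Apoa1 and Ahsg stayed under 1 CPM in every sample and Ttr and Apoa2 under 2. CPM are counts scaled by the library total and its TMM factor. The summed level of these 11 markers was 2690 to 2760 CPM in control, 3190 to 3600 in the Usp5 knockout and 4140 to 4380 in the Ythdf1 knockout, so that the 3 groups do not overlap, and the part of this difference in the results below was not tested. The 6 leukocyte markers summed to 9.05 to 16 CPM, with Cd3e at 0, and the 5 endothelial markers to 1.49 to 2.59 CPM. The 6 stellate and fibroblast markers reached 855 to 1410 CPM, almost wholly through Dcn, with Lrat at 0. In RNA from whole cultures, fewer cells of a kind and less RNA per cell cannot be told apart. Control 3 stood apart from controls 1 and 2: mitochondrial transcripts took 5.91% of its counts against 2.33% and 2.32%, and 3.51% to 6.14% in the knockouts.

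Few translation factors changed in the Usp5 knockout, and about as many rose as fell in the Ythdf1 knockout. In the Usp5 knockout 5 of 54 tested members (9.26%) passed the test at an adjusted p under 0.05, against 19.8% of all 13661 genes tested. Of these 5, 2 were higher (9.96% of all genes) and 3 lower (9.8%). In the Ythdf1 knockout 26 of 54 (48.1%) passed, against 46.5% of all genes, 13 of them higher (23.7% of all genes) and 13 lower (22.8%). The test was edgeR's quasi-likelihood test with Benjamini-Hochberg adjustment over all genes tested, and its adjusted p is given below as the edgeR adjusted p. The members' share is near the background in the Ythdf1 knockout, so that this count says nothing particular about them. Both comparisons use the same 3 control samples. The median log2 fold change of the members was -0.06 in the Usp5 knockout and 0.08 in the Ythdf1 knockout, beside -0.01 and 0.02 over all genes tested. The range over members was -0.48 to 0.44 in the Usp5 knockout and -0.71 to 1.18 in the Ythdf1 knockout.

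How many members pass in the Usp5 knockout depended on single libraries: 9 passed without control 3 or without Usp5 knockout 3, 3 without Usp5 knockout 1, and 2 without control 2 or without Usp5 knockout 2. The share of all genes passing moved too: 31.2% without control 3, 21.5% without Usp5 knockout 3 and 13.8% without Usp5 knockout 1. It was 10.7% without control 2 and 11.7% without Usp5 knockout 2. Of the 49 members that did not pass there, 47 had a 95% interval of the log2 fold change that stayed within 2-fold. In the Ythdf1 knockout the count of members higher fell from 13 to 8 without Ythdf1 knockout 1 or without Ythdf1 knockout 3. All genes higher fell as well, from 3231 to 2289 and 2272, so that the drop is not particular to the members. With library totals alone in place of TMM scaling, which shifts the median of all genes by -0.14 there, 8 members were higher and 16 lower, the members' median turned to -0.065, and the rises of Eif3g, Eif3h, Eif3k, Eif6 and Eef2 no longer passed. Levels did not overlap between Usp5 knockout and control samples in 9 members (16.7%, against 33.2% of all genes), and between Ythdf1 knockout and control samples in 30 (55.6%, against 57.1%).

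**Figure D1:**
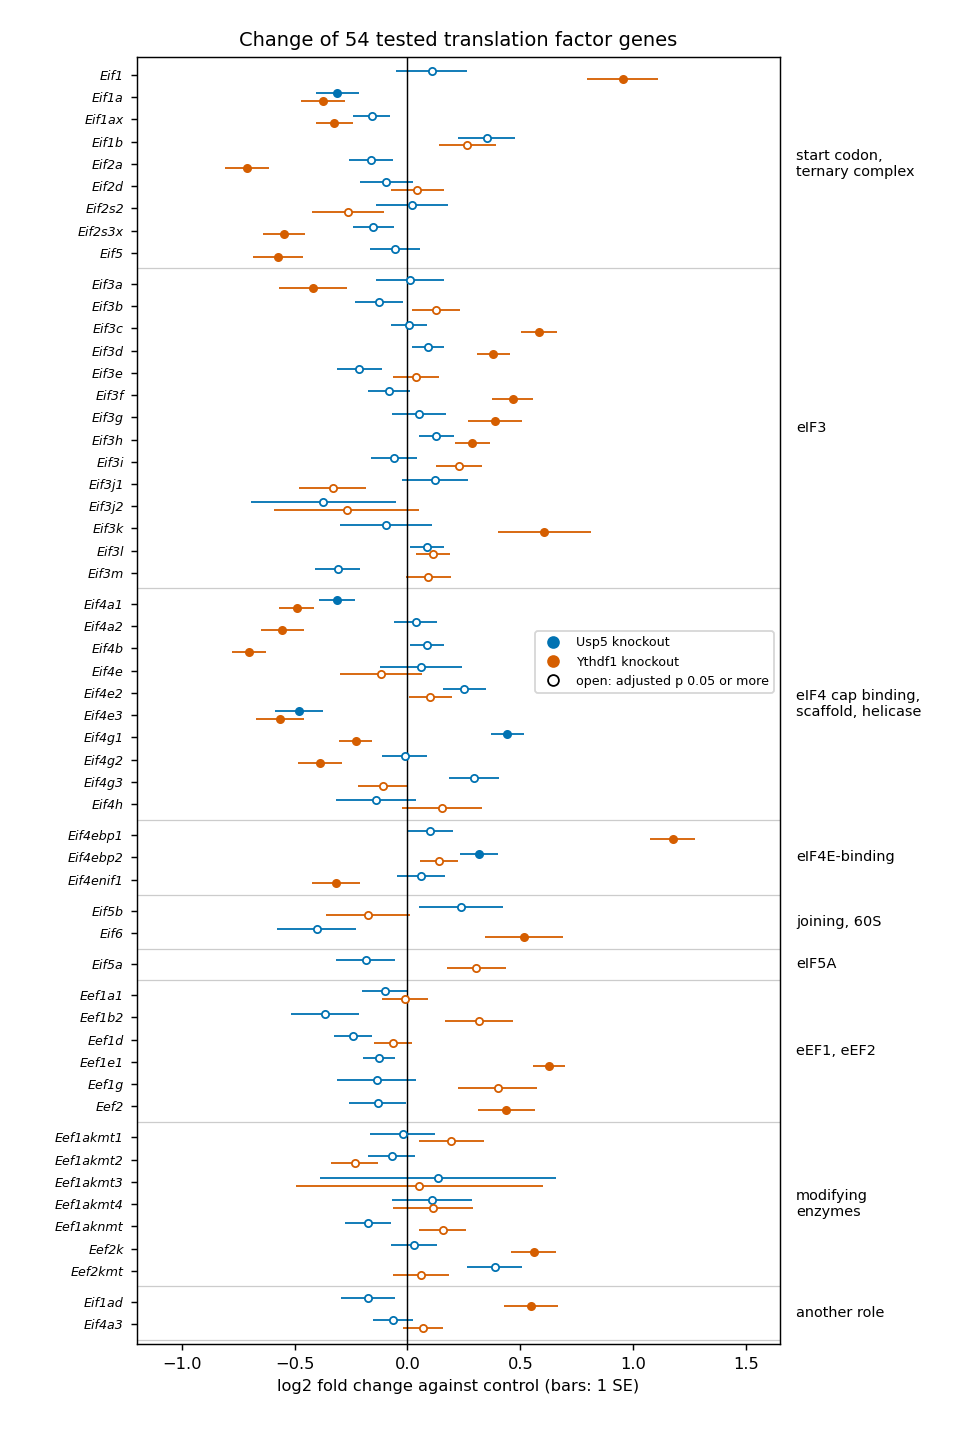
Log2 fold change against control (horizontal axis; bars are 1 SE, 3 samples per group) of the 54 tested members, grouped by role, in the Usp5 knockout (blue) and the Ythdf1 knockout (orange); filled points passed at an adjusted p under 0.05. Filled blue points are 5 and filled orange points 26, with Eif4ebp1 farthest to the right at 1.18 and Eif2a farthest to the left at -0.71.

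Promoter sequence was at hand in a RefSeq table (GRCm38.p6) for 41 of the 54 tested members, not including Eif4ebp1, and 4 stretches are shown. 3 belong to members that the results below turn on: Eif1 had the largest rise and Eif2a the largest fall in the Ythdf1 knockout among the members in the table, and Eif4g1 was called in opposite directions in the knockouts. The stretch before Eef2, the elongation factor that moves the ribosome, was picked after its match to a motif was seen. Each is the 100 bases before an annotated start, 5′ to 3′ on the plus strand, at chr11:100319849-100319948 for Eif1, chr3:58525721-58525820 for Eif2a, chr16:20672627-20672726 for Eif4g1 and chr10:81176531-81176630 for Eef2. Capitals mark CACGTG, the E-box bound by MYC, USF and TFE3 family factors, and TATAAA, the TATA box.
Eif1: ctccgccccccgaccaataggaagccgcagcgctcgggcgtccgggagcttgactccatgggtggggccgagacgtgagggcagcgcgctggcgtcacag
Eif2a: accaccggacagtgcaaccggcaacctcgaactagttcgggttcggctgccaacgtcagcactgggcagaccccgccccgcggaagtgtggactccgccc
Eif4g1: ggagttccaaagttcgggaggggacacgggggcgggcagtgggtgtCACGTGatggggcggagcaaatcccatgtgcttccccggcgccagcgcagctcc
Eef2: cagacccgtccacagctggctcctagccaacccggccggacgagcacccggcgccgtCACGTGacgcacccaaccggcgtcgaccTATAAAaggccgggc
Over the 250 bases before the starts, CACGTG was found in 12 of the 41 members (29.3%), against 9.94% of 10040 tested genes and 6.86% of 27025 genes in the table. It lies 54 bases before the start in Eif4g1 and 43 in Eef2, and also occurs before Eef1akmt4, Eef1aknmt, Eef2k, Eif1b, Eif3f, Eif3k, Eif4a1, Eif4e, Eif4h and Eif5a. Of these 12 members, 4 rose and 2 fell in the Ythdf1 knockout, beside 23.7% and 22.8% of all genes. In the Usp5 knockout 1 rose and 1 fell, beside 9.96% and 9.8% of all genes. Carriers of the motif thus moved to both sides, and whether they depart from these shares was not tested. The other motifs searched, on both strands, were TATAAA, found in 3 of 41 members (7.32%, against 8.17% of tested genes), and TGATGNAA, the binding motif of ATF4 with C/EBP factors, found in Eef2k and Eif2s3x (4.88%, against 2.37%). The stretches shown for Eif1 and Eif2a hold none of these letters, from which nothing follows about the factors. A match is only a description of the letters.

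The factors that select the start codon and bring the initiator tRNA fell more often than they rose in the Ythdf1 knockout: of 9 tested members 1 rose and 5 fell, beside 23.7% and 22.8% of all genes, while in the Usp5 knockout 1 fell (9.8% of all genes). With the trends of GC content and length removed 3 of the 9 were lower in the Ythdf1 knockout, since Eif1a and Eif1ax no longer passed. Eif1 (ENSMUSG00000035530), whose protein guards against starting at a wrong codon, was measured at 248, 266 and 187 CPM in control, 309, 226 and 220.0 in Usp5 knockout samples and 458, 418 and 480.5 in Ythdf1 knockout samples. Every Ythdf1 knockout sample lay above every other sample, and the Usp5 knockout overlapped with control. The log2 fold change was 0.95 (SE 0.158, edgeR adjusted p = 0.00085) in the Ythdf1 knockout and 0.11 (95% interval -0.24 to 0.46) in the Usp5 knockout. The other calls of this role in the Ythdf1 knockout were falls. Eif2a, a factor able to deliver initiator tRNA apart from eIF2, stood at 57.7, 61.7 and 69.5 CPM in control, 52.3, 59.1 and 57.6 in Usp5 knockout samples and 36.5, 42.4 and 36.5 in Ythdf1 knockout samples, which were the 3 lowest. Its log2 fold change there was -0.71 (SE 0.0985, edgeR adjusted p = 0.000302), the largest fall among the members.

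Eif5, which makes eIF2 hydrolyse its GTP at the start codon, was at 174, 202 and 220.4 CPM in control and 125, 151 and 125 in the Ythdf1 knockout, without overlap. It fell by 0.57 on the log2 scale (SE 0.112, edgeR adjusted p = 0.00214). Eif2s3x, the X-linked gene of the γ subunit of eIF2, was at 324, 334 and 372 CPM in control and 220.2, 257 and 228 in the Ythdf1 knockout, also without overlap. Its log2 fold change was -0.55 (SE 0.0915, edgeR adjusted p = 0.000896). For Eif2s2, the β subunit, the log2 fold change was -0.26 in the Ythdf1 knockout (95% interval -0.62 to 0.09) and 0.02 in the Usp5 knockout (95% interval -0.33 to 0.38), and passed in neither. Both genes of eIF1A, which works beside eIF1 in scanning, fell in the Ythdf1 knockout: Eif1a by 0.37 and Eif1ax by 0.32 (log2, edgeR adjusted p = 0.00912 and 0.0083). Eif1a also passed in the Usp5 knockout, at -0.31 (edgeR adjusted p = 0.0451), a call that 12 of 19 alternative settings ended, including those without control 2 or 3, without Usp5 knockout 1 or 2 and without any 1 of the Ythdf1 knockout samples. Eif1b and Eif2d passed in neither knockout.

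Of the 14 genes of eIF3, the large complex that holds the scanning 40S subunit together, 6 rose and 1 fell in the Ythdf1 knockout and none passed in the Usp5 knockout, where their log2 fold changes ran from -0.37 to 0.13. Among all genes 23.7% rose and 22.8% fell in the Ythdf1 knockout, and 19.8% passed in the Usp5 knockout. Eif3c, a core subunit, was at 836, 828 and 911 CPM in control, 854, 835 and 897 in Usp5 knockout samples and 1238, 1326 and 1289.9 in Ythdf1 knockout samples. The Ythdf1 knockout samples lay clear above the rest, with a log2 fold change of 0.58 (SE 0.0786, edgeR adjusted p = 0.000258). Eif3k, a peripheral subunit, was at 180.4, 166 and 118 CPM in control and 258, 193 and 256 in the Ythdf1 knockout, without overlap. It rose by 0.61 on the log2 scale (SE 0.205, edgeR adjusted p = 0.033). Control 3 was the lowest control for Eif3k, and the call was lost in 8 of 19 alternative settings, among them without control 2, without control 3, without Usp5 knockout 2 and without Ythdf1 knockout 1 or 3. The other rises were Eif3f at 0.47, Eif3g at 0.39, Eif3d at 0.38 and Eif3h at 0.29. Without Ythdf1 knockout 1 or 3 the calls of Eif3g and Eif3h ended, as did that of Eif3g without control 3 and that of Eif3h without control 2. The fall was that of Eif3a, the largest subunit, at 357, 385 and 539 CPM in control and 299.7, 366 and 293 in the Ythdf1 knockout. These ranges overlap, and the log2 fold change was -0.42 (SE 0.15, edgeR adjusted p = 0.0422), not passed without control 3, without Usp5 knockout 3, without Ythdf1 knockout 1 or 3 or with only the groups compared in the fit. With GC and length trends removed Eif3a was at -0.06 (edgeR adjusted p = 0.649), and Eif3g, Eif3h and Eif3k no longer passed, at 0.02, 0.09 and 0.27. Eif3e and Eif3m newly passed in that fit, so that 5 genes of eIF3 were called higher and 0 lower, not all of them the same genes. The log2 fold changes of Eif3b, a core subunit, were 0.12 (Ythdf1 knockout) and -0.13 (Usp5 knockout), and those of Eif3e 0.04 and -0.21. The loosely bound eIF3j is encoded by Eif3j1, at -0.33 and 0.12, and Eif3j2, at -0.27 and -0.37. None of these 4 genes passed in either comparison with control in the uncorrected fit.

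The genes of cap binding, scaffold and helicase fell in the Ythdf1 knockout in 6 of 10 tested cases and rose in none (5 and 0 with GC and length trends removed), and in the Usp5 knockout 1 rose and 2 fell. Of all genes 22.8% fell and 23.7% rose in the Ythdf1 knockout, and 9.8% fell and 9.96% rose in the Usp5 knockout. Eif4g1 (ENSMUSG00000045983), the main scaffold, was at 1042, 984 and 1078 CPM in control, 1423, 1387 and 1409.7 in Usp5 knockout samples and 873, 879 and 896 in Ythdf1 knockout samples. The 3 groups do not overlap: all Usp5 knockout samples lay above control and all Ythdf1 knockout samples below it. The log2 fold change was 0.44 (SE 0.0737, edgeR adjusted p = 0.00224) in the Usp5 knockout and -0.23 (SE 0.0736, edgeR adjusted p = 0.0266) in the Ythdf1 knockout. The rise in the Usp5 knockout passed in all 19 alternative settings, while the fall in the Ythdf1 knockout did not pass without control 1 or without Ythdf1 knockout 1. Its relatives gave other values. Eif4g3, another scaffold, had a log2 change of 0.29 in the Usp5 knockout (95% interval 0.05 to 0.54) and -0.11 in the Ythdf1 knockout (95% interval -0.35 to 0.13), and passed in neither. Eif4g2, a scaffold that does not bind eIF4E, had -0.01 in the Usp5 knockout and fell by 0.39 in the Ythdf1 knockout (SE 0.098, edgeR adjusted p = 0.00876).

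Eif4b, a cofactor of the helicase, was at 719, 691 and 735 CPM in control, 808, 737 and 732 in Usp5 knockout samples and 435, 439.5 and 443 in Ythdf1 knockout samples. The 3 Ythdf1 knockout values are close together and far below the other 6, and the log2 fold change was -0.70 (SE 0.0751, edgeR adjusted p = 7.05e-05). Eif4a1, the major helicase gene, was at 1129.5, 1135 and 993 CPM in control, 874, 875 and 873 in Usp5 knockout samples and 777, 761 and 779.8 in Ythdf1 knockout samples. Here both knockouts lay below every control. The log2 fold change of Eif4a1 was -0.31 (SE 0.0789, edgeR adjusted p = 0.0199) in the Usp5 knockout, a call lost without control 1 or 2 and without Usp5 knockout 1 or 2, and -0.49 (SE 0.079, edgeR adjusted p = 0.000723) in the Ythdf1 knockout. Eif4a2, its paralog, was at 89.2, 98.5 and 81.9 CPM in control, 87.8, 86.3 and 103 in Usp5 knockout samples and 60.6, 64.5 and 58.7 in Ythdf1 knockout samples. The Ythdf1 knockout samples were the 3 lowest. Eif4a2 fell by 0.55 in the Ythdf1 knockout (log2, SE 0.0956, edgeR adjusted p = 0.00108) and had 0.04 in the Usp5 knockout (95% interval -0.17 to 0.25).

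Eif4e, the cap-binding protein itself, was at 166, 169 and 242 CPM in control, 163, 242 and 195 in Usp5 knockout samples and 162, 208 and 161 in Ythdf1 knockout samples. The groups overlap, and both intervals of the log2 fold change include 0 (-0.34 to 0.46 and -0.52 to 0.29). Eif4e2, a cap-binding relative that represses translation, had 0.25 in the Usp5 knockout (edgeR adjusted p = 0.0892) and 0.10 in the Ythdf1 knockout. Eif4e3, another cap-binding relative, was low throughout, at 13, 13.4 and 15 CPM in control, 9.03, 10.1 and 10.6 in Usp5 knockout samples and 9.77, 9.49 and 8.72 in Ythdf1 knockout samples. It was below every control in all 6 knockout samples, with log2 fold changes of -0.48 (SE 0.105, edgeR adjusted p = 0.0101) in the Usp5 knockout and -0.56 (SE 0.106, edgeR adjusted p = 0.00172) in the Ythdf1 knockout. Eif4h, a helicase cofactor, passed in neither.

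**Figure D2:**
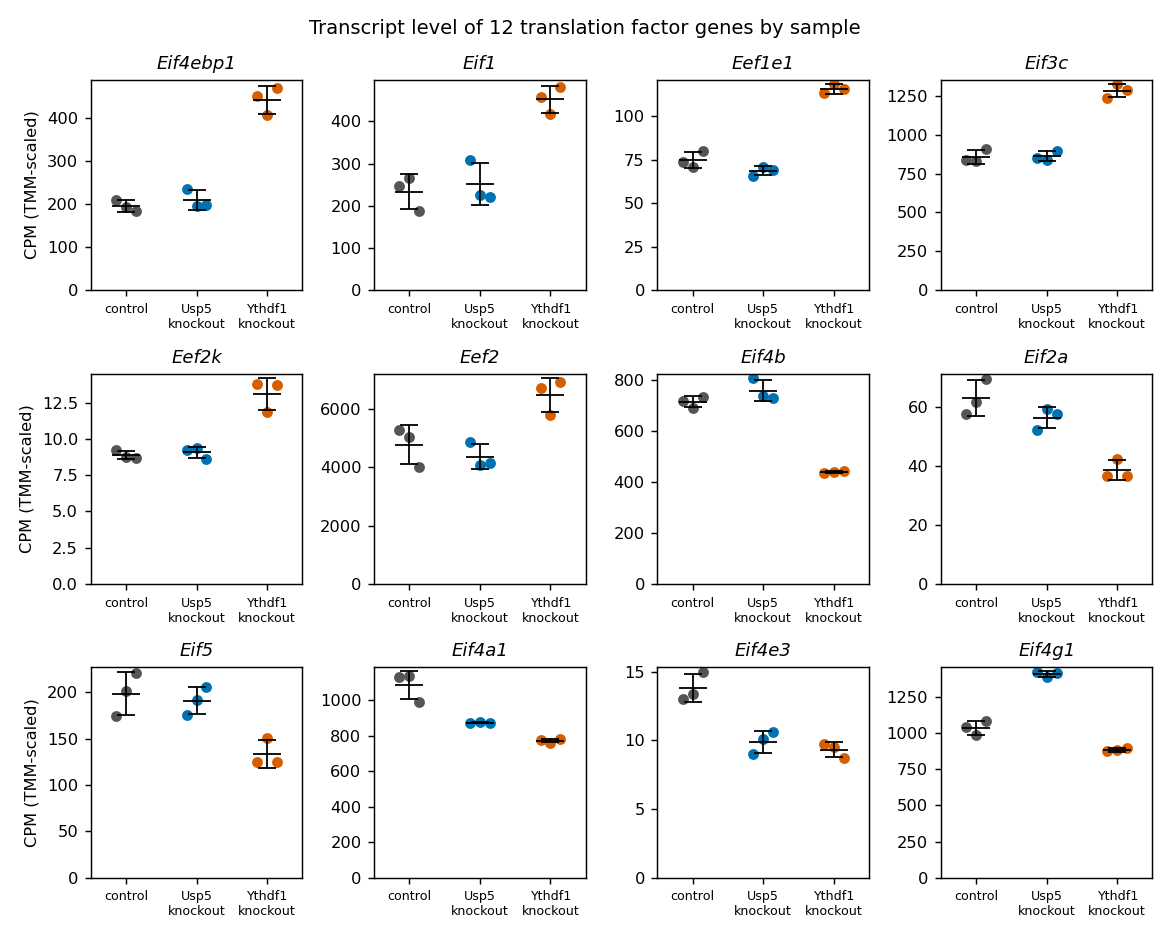
Level in CPM after TMM scaling (vertical axis, from 0) of 12 members in each of the 3 samples per group (points), with the group mean and SD (black bars). The Ythdf1 knockout stands above the other groups for Eif4ebp1, Eif1, Eef1e1, Eif3c, Eef2k and Eef2 and below control for Eif4b, Eif2a, Eif5, Eif4a1, Eif4e3 and Eif4g1, and the Usp5 knockout stands above both for Eif4g1.

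Among the regulators that bind eIF4E, 1 rose and 1 fell of 3 tested in the Ythdf1 knockout (23.7% and 22.8% of all genes) and 1 rose in the Usp5 knockout (9.96% of all genes). Eif4ebp1 (ENSMUSG00000031490), which encodes 4E-BP1, the inhibitor of eIF4E that mTORC1 phosphorylates, was at 209.8, 193 and 184 CPM in control, 236, 195 and 198 in Usp5 knockout samples and 450.0, 406 and 469 in Ythdf1 knockout samples. The Ythdf1 knockout samples lay above all other samples by a wide gap, at a fitted level of 226% of control. Its log2 fold change of 1.18 (SE 0.1, edgeR adjusted p = 2.11e-05) was the largest of the 54 members, and the Usp5 knockout had 0.10 (95% interval -0.12 to 0.32). Eif4ebp2, its relative, was at 163, 166 and 185 CPM in control and 213, 229.8 and 196 in the Usp5 knockout, where every sample was above control. The log2 fold change of Eif4ebp2 was 0.32 (SE 0.0836, edgeR adjusted p = 0.0243) in the Usp5 knockout, not passed without control 1 or 2 or without Usp5 knockout 1 or 2, and 0.14 (95% interval -0.04 to 0.33) in the Ythdf1 knockout. Eif4enif1, which carries eIF4E into the nucleus and to processing bodies, fell by 0.32 in the Ythdf1 knockout (SE 0.106, edgeR adjusted p = 0.0313), a call lost without control 3 and without Ythdf1 knockout 1 or 3.

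The ratio of Eif4ebp1 to Eif4e, taken on counts per kilobase within each sample, was 1.69, 1.53 and 1.01 in control, 1.93, 1.08 and 1.36 in Usp5 knockout samples and 3.70, 2.61 and 3.90 in Ythdf1 knockout samples. All Ythdf1 knockout samples thus had more inhibitor transcript per eIF4E transcript than any other sample, while the other groups overlapped. The ratio of Eif4a2 to Eif4a1 was 0.0644, 0.0709 and 0.0673 in control, 0.0820, 0.0805 and 0.0960 in Usp5 knockout samples and 0.0636, 0.0692 and 0.0614 in Ythdf1 knockout samples. The Usp5 knockout lay above the control range in all 3 samples, and the Ythdf1 knockout overlapped with control. Eif4g3 to Eif4g1 was 0.126 to 0.140 in the Usp5 knockout, 0.135 to 0.162 in control and 0.150 to 0.173 in the Ythdf1 knockout, with overlap of both knockouts and control. Eef2k to Eef2 was 0.00143 to 0.00178 in control and within 0.00157 to 0.00188 in the knockouts. These ratios do not depend on library scaling and were not tested.

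Of the genes that act on the 60S subunit, Eif6, which keeps 60S from joining too early, rose in the Ythdf1 knockout. Its level was 379, 374 and 235 CPM in control, 286, 228 and 233 in Usp5 knockout samples and 484, 419 and 511 in Ythdf1 knockout samples. Control 3 lay with the Usp5 knockout and far below controls 1 and 2. The log2 fold change was 0.52 (SE 0.174, edgeR adjusted p = 0.0327) in the Ythdf1 knockout, not passed without Usp5 knockout 2 or without Ythdf1 knockout 1 or 3, and -0.40 (95% interval -0.79 to -0.02, edgeR adjusted p = 0.13) in the Usp5 knockout. Eif5b, the subunit-joining GTPase, had -0.18 and 0.24 in the same order, passed in neither, and was highest among controls in control 3. Eif5a, whose protein carries hypusine and helps ribosomes past difficult peptide bonds, had 0.31 in the Ythdf1 knockout (95% interval 0.01 to 0.60, edgeR adjusted p = 0.0795) and -0.18 in the Usp5 knockout.

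Of 6 tested genes with eEF1 or eEF2 symbols, 2 rose in the Ythdf1 knockout, Eef2 and Eef1e1, the latter not an elongation factor, and none passed in the Usp5 knockout. Among all genes 23.7% rose in the Ythdf1 knockout and 19.8% passed in the Usp5 knockout. Eef1a1, which delivers aminoacyl-tRNA, was at 6944, 6899.7 and 6305 CPM in control, 7083, 5565 and 6159.7 in Usp5 knockout samples and 6600.1, 6603 and 6796 in Ythdf1 knockout samples. All 3 groups overlap, and the log2 fold changes were -0.10 (95% interval -0.32 to 0.12) in the Usp5 knockout and -0.01 (95% interval -0.23 to 0.21) in the Ythdf1 knockout. A processed pseudogene, Eef1a1-ps1, held 3.65% as many counts as Eef1a1, and reads can be divided between such copies. Eef2, the translocase, was at 5283, 5024 and 4015 CPM in control, 4852, 4084 and 4134 in Usp5 knockout samples and 6695, 5798 and 6899 in Ythdf1 knockout samples. Every Ythdf1 knockout sample was above the other 6. The log2 fold change of Eef2 was 0.44 (SE 0.126, edgeR adjusted p = 0.0161) in the Ythdf1 knockout, not passed with library totals alone or without Ythdf1 knockout 1 or 3, and -0.13 (95% interval -0.41 to 0.15) in the Usp5 knockout. Eef1e1 is despite its name known as a part of the multi-tRNA-synthetase complex. It was at 73.9, 71 and 80.1 CPM in control, 65.9, 71.1 and 69.2 in Usp5 knockout samples and 113, 118 and 115 in Ythdf1 knockout samples, where all samples lay above the other 6 (log2 fold change 0.63, SE 0.0715, edgeR adjusted p = 0.000103). The subunits that recharge eEF1A with GTP did not pass against control: Eef1b2 had 0.32 in the Ythdf1 knockout and -0.36 in the Usp5 knockout, Eef1g had 0.40 and -0.14, and Eef1d had -0.06 and -0.24.

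Of 7 enzymes that modify the elongation factors, 1 rose in the Ythdf1 knockout (23.7% of all genes) and none passed in the Usp5 knockout (19.8% of all genes). That gene was Eef2k, the kinase that inactivates eEF2, at 9.22, 8.77 and 8.69 CPM in control, 9.25, 9.34 and 8.63 in Usp5 knockout samples and 13.8, 11.8 and 13.7 in Ythdf1 knockout samples. No Ythdf1 knockout sample overlaps with the others, and the log2 fold change was 0.56 (SE 0.1, edgeR adjusted p = 0.00134). The methyltransferases Eef1akmt1 to Eef1akmt4, Eef1aknmt and Eef2kmt did not pass. Their log2 fold changes lay between -0.23 (Eef1akmt2) and 0.20 (Eef1akmt1) in the Ythdf1 knockout and between -0.18 (Eef1aknmt) and 0.39 (Eef2kmt) in the Usp5 knockout. Eef1akmt3 was under 1 CPM in every sample and has the widest interval (-1.03 to 1.29 in the Usp5 knockout). Of 2 tested genes named as factors but known for other roles, Eif1ad, named for its eIF1A-like domain, was at 85, 84 and 66.2 CPM in control and 119.6, 103 and 122 in the Ythdf1 knockout, without overlap. It rose by 0.55 (SE 0.119, edgeR adjusted p = 0.00383), and Eif4a3, the helicase of the exon junction complex, passed in neither knockout.

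Set directly against each other, where the control cancels, the knockouts differed in 29 of 54 members (53.7%, against 48.5% of all genes): 11 were higher (23.3% of all genes) and 18 lower (25.2%) in the Usp5 knockout. Vector and clone differ between the lines as well, and cannot be told apart from the gene knocked out. Levels did not overlap between these groups in 38 members (70.4%, against 59% of all genes). The eIF4 genes were higher in the Usp5 knockout in 5 of 10 cases and lower in none, led by Eif4b at 0.79 (SE 0.0752, edgeR adjusted p = 2.57e-05) and Eif4g1 at 0.67 (SE 0.0739, edgeR adjusted p = 6.29e-05). Genes of eIF3 were lower in 7 of 14 cases and higher in 2. Of these eIF3 calls only those of Eif3c and Eif3f held in all 19 alternative settings, and that of Eif3i was lost in 11 and that of Eif3g in 9. With GC and length trends removed 5 genes of eIF3 were lower, the newly called Eif3e among them, and 0 higher. Those of eEF1 and eEF2 were lower in 4 of 6 cases, with Eef1e1 at -0.75, Eef1b2 at -0.68, Eef2 at -0.57 and Eef1g at -0.54 (lost without Usp5 knockout 2 or 3 or Ythdf1 knockout 1 or 3). The largest difference was that of Eif4ebp1, at -1.07 (SE 0.1, edgeR adjusted p = 2.27e-05), followed by Eif6 at -0.92 (SE 0.175, edgeR adjusted p = 0.00182) and Eif1 at -0.84 (SE 0.158, edgeR adjusted p = 0.00159). Eif4a1, Eif4e3 and Eif1a, called lower than control in both knockouts, did not pass between them, at 0.18, 0.09 and 0.06. Without Ythdf1 knockout 1, 19 members passed in place of 29, and 10 of them were lower. The share of all genes passing fell there as well, from 48.5% to 36.2%. The count of members lower was 11 without Ythdf1 knockout 3 or without Usp5 knockout 2.

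On a scale of counts per kilobase of gene length, scaled to the same total in every sample, the tested members covered a wide range. Eef1a1 came first in every group and took 29.0% of the members' summed level in control, 28.8% in the Usp5 knockout and 25.7% in the Ythdf1 knockout. Eef2 ranked next (11.3%, 11% and 13.7%) and then Eif5a (7.01%, 6.54% and 7.72%). In control the mean levels were 8121 ± 778 for Eef1a1 and 3179 ± 568 for Eef2 (SD, n = 3), and the median member stood at 193. Next came Eif4a1 (1516 ± 176), Eif3h (1344 ± 25.3), Eef1g (1298 ± 298) and Eef1b2 (1220 ± 299.9), neighbours whose order lies within their spread. The lowest were Eif4e3, Eef2k, Eif3j2 and Eef1akmt3 in each group. In the Ythdf1 knockout Eif4ebp1 stood at rank 16 against 27 in the other groups, and Eif4b at rank 24 against 16 in control and 12 in the Usp5 knockout. The eIF4 genes took 13.2%, 13.3% and 14% of the members' summed per-length level in control, 13.1%, 14.9% and 14.1% in Usp5 knockout samples and 9.54%, 10.1% and 9.49% in Ythdf1 knockout samples. The eIF4E-binding regulators took 1.21% to 1.42% in control, 1.45% to 1.61% in the Usp5 knockout and 1.89% to 1.92% in the Ythdf1 knockout. The share of the eEF1 and eEF2 genes overlapped between the groups, at 48.4% to 51.4% in control.

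**Figure D3:**
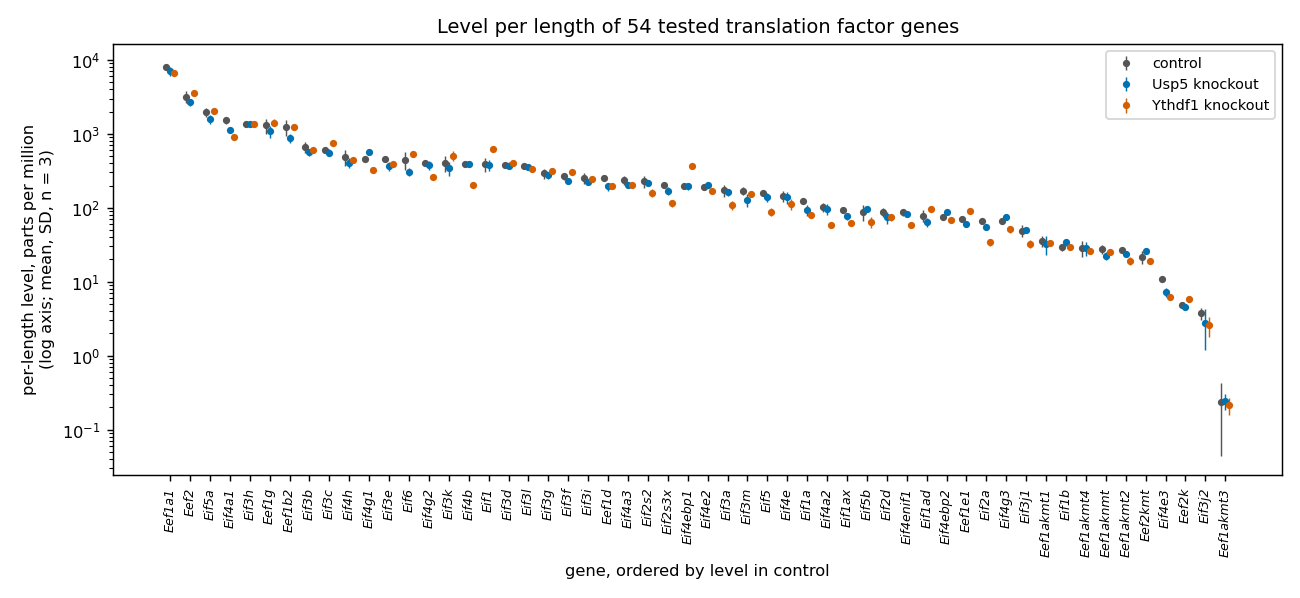
Level per gene length (counts per kilobase at the same total in every sample; vertical axis, log scale; mean and SD, n = 3) of the 54 tested members in order of their level in control (horizontal axis), for control (grey), Usp5 knockout (blue) and Ythdf1 knockout (orange). This scale has no TMM scaling and serves to compare genes, from Eef1a1 at 8121 in control down to Eef1akmt3 at 0.239.

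Members that rose in the Ythdf1 knockout had transcripts richer in G and C than members that fell. The 13 members that rose had a median GC content of 50.9% in their longest transcript and the 13 that fell 44.1%, beside 53.2% and 45.7% among all genes that rose and fell. Across the 54 members the Spearman correlation of the log2 fold change with GC content was 0.55 and with gene length -0.33, and over all genes tested 0.40 and -0.28. These are descriptions across genes of the same libraries, without a test, and whether composition takes part in the changes was not tested. With the trends of GC content and length removed in the fit, 22 members passed, 11 higher and 11 lower, and 18 of the 26 were among them. Eif4ebp1 then had 1.17, Eef1e1 0.80, Eif1 0.77, Eif3c 0.62, Eef2k 0.61, Eif4b -0.64 and Eif4a1 -0.46, all still called. Eif2a at -0.46, Eif4e3 at -0.37, Eif4a2 at -0.33, Eif5 at -0.27, Eif2s3x at -0.24, Eif3d at 0.23 and Eef2 at 0.25 were still called but smaller by over 1.5 times. The 8 calls lost were Eif4g2 at -0.02, Eif1a at -0.03, Eif1ax at -0.05, Eif3a at -0.06, Eif3g at 0.02, Eif3h at 0.09, Eif6 at 0.16 and Eif3k at 0.27. Among the start codon factors the calls of Eif1a and Eif1ax thus ended, while those of Eif2a, Eif5 and Eif2s3x held at a smaller size. Newly called were Eif3e at 0.30 and Eif3m at 0.31, and Eif4a3 and Eef2kmt, both now lower.

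**Figure D4:**
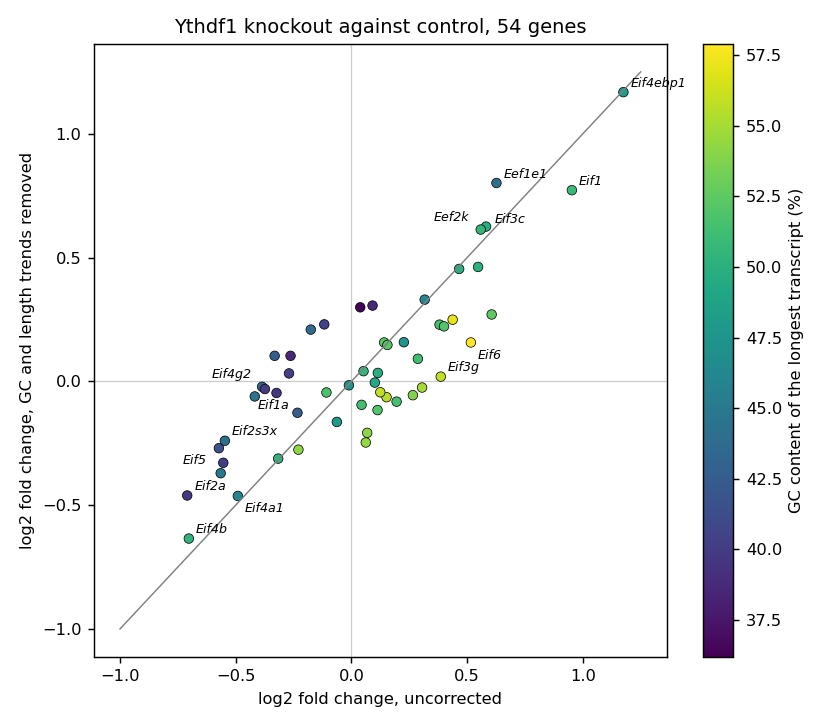
Log2 fold change of the 54 tested members in the Ythdf1 knockout against control, uncorrected (horizontal axis) and with the trends of GC content and length removed (vertical axis); colour gives the GC content of the longest transcript and the diagonal marks equal values. Eif4ebp1 lies on the diagonal (1.18 and 1.17), while Eif1a and Eif4g2, low in GC, move to near 0.

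Other genes of the pathway, from lists set beside the members, gave calls of both directions in the Ythdf1 knockout and few in the Usp5 knockout. The counts below stand beside 23.7% of all genes higher and 22.8% lower in the Ythdf1 knockout. For the Usp5 knockout these shares were 9.96% and 9.8%. The lists are short, and whether any of them departs from these shares was not tested. Of 19 tested genes of mTORC1 signalling, 9 rose and 3 fell in the Ythdf1 knockout. Sesn2, an inhibitor of mTORC1 induced by stress, was at 45.4, 43.5 and 46.3 CPM in control and 155, 155 and 162 in the Ythdf1 knockout, more than all other samples (log2 fold change 1.80, edgeR adjusted p = 1.21e-07). Its relative Sesn1 fell by 0.93 (edgeR adjusted p = 0.000233). In the Usp5 knockout 1 of the 19 rose and 2 fell: Deptor, an inhibitor within the mTOR complexes, was at 9.49, 9.86 and 11.5 CPM in control and 24.3, 26.3 and 25.5 in the Usp5 knockout (log2 fold change 1.30, edgeR adjusted p = 1.62e-05), and Castor1, an arginine sensor, had the larger fall at -0.62 (edgeR adjusted p = 0.0453). The call of Castor1 was lost in 9 of 19 settings, among them without control 1 or 2, Usp5 knockout 1 or 3 and Ythdf1 knockout 1 or 3. The median log2 fold change of this list was 0.26 in the Ythdf1 knockout and -0.08 in the Usp5 knockout. The list holds inhibitors such as Sesn2 and Deptor beside Mtor itself, so that its median gives no direction of the pathway. Of 14 initiation cofactors outside the eIF names, 4 rose and 5 fell in the Ythdf1 knockout, from Mknk1, a kinase of eIF4E, at 0.63 to the helicase Ddx3x at -0.82, and in the Usp5 knockout the helicase Dhx29 fell by 0.26, a call lost without control 1 or 2 and without any 1 of the Usp5 knockout samples. Of 10 genes of termination, recycling and rescue, 3 rose and 2 fell in the Ythdf1 knockout, with Gtpbp2, a rescue factor of stalled ribosomes, at 1.32 and the recycling factor Abce1 at -0.50. Of 9 genes that make hypusine on eIF5A or diphthamide on eEF2, 4 rose and none fell there, with Dhps, the first enzyme of hypusine synthesis, at 0.59. Of 8 poly(A)-binding proteins and partners 2 fell, with Larp4 at -0.57, and of 10 mitochondrial translation factors 1 rose (Mrrf, 0.49) and 3 fell (Mtrf1 the most, -0.93). With GC and length trends removed, Abce1 and Larp4 no longer passed (-0.07 and -0.06), and Ddx3x and Dhps kept their calls at -0.39 and 0.24. The call of Abce1 was also lost without control 2 or 3 and without Ythdf1 knockout 1 or 3. No gene of the lists of termination, modification, poly(A) binding and mitochondria passed in the Usp5 knockout. Among 9 members whose mRNAs are known to begin with a TOP motif, through which mTORC1 governs translation, Eef2, Eif3f and Eif3h rose and Eif4b fell in the Ythdf1 knockout, with none passing in the Usp5 knockout.

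The 23 members that were not tested held 165 counts over all 9 samples, and 6 of them none, among them Eif2s3y, the Y-linked γ subunit of eIF2. Eef1a2, the eEF1A of muscle and nerve, had 8 counts, Eif5a2 9, Eif4a3l2 5, and Eif4a3l1 and Eif4e1b 1 each. Eif4ebp3 had 17 counts, 10 of them in Usp5 knockout 1. Of the 9 counts of Eif5a2, 8 were in the Usp5 knockout (2, 3 and 3) and 1 in control. The other 16 carry symbols of Eif1ad followed by a number, and their sequences were not compared. Eif1ad15 had 28 counts, Eif1ad6 26, Eif1ad7 23, Eif1ad2 15, Eif1ad8 9, Eif1ad3 and Eif1ad4 8 each, Eif1ad10 4, Eif1ad14, Eif1ad16 and Eif1ad17 1 each, and Eif1ad11, Eif1ad12, Eif1ad13, Eif1ad18 and Eif1ad19 none. Summed over these 16 genes each control had 15 counts. Usp5 knockouts 1 and 2 had 1 count each and sample 3 had 0. Ythdf1 knockouts 1 to 3 had 23, 21 and 33. The Usp5 knockout was lowest. These counts are not scaled for depth, Usp5 knockout 1 is the deepest library, and the part of depth was not tested. This sum was formed after the values were seen, reads can be divided among related genes, and no test was made at this depth.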

How the data were processed

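RNA of 9 Hepa 1-6 samples was sequenced. Per the labels' protocols, RNA was treated with DNase I and libraries were made with a poly(A) mRNA kit. The authors deposited 1 table of estimated counts per gene, written as whole numbers, with a length for each gene. The submitters' processing notes name GRCm39, Salmon 1.9.0, STAR 2.7.10a and fastp 0.23.2. The annotation release and any use of strand are not given in the sources used here. Copies and overlapping genes can share reads.

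Members and lists were chosen with earlier results of these data known. Counts were tested with edgeR 4.0.16 (R 4.3.3): TMM scaling, filterByExpr, and the quasi-likelihood test over all 9 samples with group as the only term, adjusted by Benjamini-Hochberg over 13661 genes. SE is the size of the log2 fold change over the root of F, and intervals are 95%. The samples held 24760877 to 42989715 counts, and precision rests on the spread between samples as well as on this depth. Per-length levels use the deposited lengths. GC content came from GENCODE M21 by gene identifier (99.9% of tested genes). Alternatives were limma 3.58.1 (voom), DESeq2 1.42.0, other scalings and filters, a replicate block, a fit with GC and length trends removed (splines of 5 degrees of freedom), and each sample left out. No 2 libraries of a group agreed within counting noise. By chi-square per degree of freedom, Ythdf1 knockouts 1 and 3 were closest, at 3.46, against 14.7 or more in every other such pair. The scripts were tested on simulated data. Named in the text are members called at a log2 fold change of at least 0.5, a set list of the best-known factors, all untested members, and from each other list the largest called rise and fall; other called members were added after their values were seen. A gene of the marker lists is not reported here. Promoter sequences are from RefSeq (GRCm38.p6).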

Additional observations from a re-analysis of the deposited data

Results flagged for a closer look

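Eif4g1, the main eIF4G scaffold, was singled out because its response differed between the knockouts: it was called higher than control in the Usp5 knockout and lower in the Ythdf1 knockout, and the direct comparison of the knockouts passed as well, at a log2 difference of 0.67 (Usp5 knockout minus Ythdf1 knockout, SE 0.0739, edgeR adjusted p = 6.29e-05). The 3 Usp5 knockout samples lay above all 3 controls and the 3 Ythdf1 knockout samples below them. Over the 19 alternative settings the difference ran from 0.67 to 0.75 and passed in each, as did the rise in the Usp5 knockout. The fall in the Ythdf1 knockout was less stable. It was lost in 4 of the 19: with no filter, at an adjusted p under 0.01, without control 1 and without Ythdf1 knockout 1. No other member was called in opposite directions against control. Each group of 3 samples is too small for a test of single outlying samples.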

How the results depend on the processing

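Of 3073 values recomputed for the 54 tested members under 19 alternative settings, 2862 kept their side of the threshold, 137 no longer passed, 70 newly passed and 4 turned their sign while called in either fit. Among the 2862 were 121 values, called in neither fit, that also turned their sign, 25 of them with GC and length trends removed, 20 with library sizes alone and 16 without control 3. The 4 came with GC and length trends removed: in the Ythdf1 knockout Eef2kmt to -0.25 and Eif4a3 to -0.21, and between the knockouts Eif4a3 to 0.19 and Eif3g to 0.055, the last not passing. The calls that held in all 19 settings were 1 of 5 (Usp5 knockout), 15 of 26 (Ythdf1 knockout) and 16 of 29 (between the knockouts). For the Usp5 knockout, members called higher were 4 with DESeq2, 1 with only the groups compared in the fit, 6 with GC and length trends removed and 1 at an adjusted p under 0.01; members called lower were 5 with library sizes alone, 5 with DESeq2, 7 with no filter, 1 with only the groups compared and 0 at an adjusted p under 0.01. For the Ythdf1 knockout, members called higher were 8 with library sizes alone and 8 at an adjusted p under 0.01. Between the knockouts, members called higher were 6 at an adjusted p under 0.01. The median log2 fold change was -0.141 (Usp5), -0.065 (Ythdf1) and -0.033 (between them) with library sizes alone, which shift the median of all genes by -0.08, -0.14 and 0.06, and 0.006, 0.007 and -0.007 with GC and length trends removed. With library sizes alone all genes called in the Ythdf1 knockout were 2159 higher and 4185 lower, against 3231 and 3119, and in the Usp5 knockout 1026 and 1833, against 1361 and 1339. Leaving out 1 sample gave 1 to 4 members higher, 1 to 5 lower and a median of -0.081 to -0.041 in the Usp5 knockout, 8 to 14, 10 to 15 and 0.041 to 0.105 in the Ythdf1 knockout, and 9 to 14, 10 to 20 and -0.112 to 0.015 between them. All genes called in the Usp5 knockout were 2700, and 1494 to 4371 with 1 sample left out, the highest without control 3. Replicate numbers do not pair the samples: deviations from the group mean correlated at -0.257 to 0.298 in same-numbered pairs and -0.333 to 0.345 in others. With the replicate block 4, 26 and 28 members passed. The cause of these changes was not tested. Depth limits the members under 1 CPM and the untested ones.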
